A study of Mus musculus with 6 samples.

Results

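Replication licensing is the step that prepares each origin of DNA replication for a single use in the coming S phase. The genes described here are Mcm2, Mcm3, Mcm4, Mcm5, Mcm6, Mcm7, Cdc6, Cdt1, Gmnn and Pcna, 10 of the 18193 genes that have a probe set of their own on the array. Every probe set annotated to 1 of these genes alone was taken, which gave 25 probe sets, of which 23 passed the filter on low signals. The remaining probe sets, 1 of Mcm6 and 1 of Cdt1, gave signals of 0.677 to 27.5 and were not tested. For a gene with several probe sets, the values below are those of its brightest one on average unless another is named.

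Undifferentiated mouse iPSCs of 6 clones were measured on 1 array each. All clones came from embryonic fibroblasts of Nanog-GFP transgenic mice, reprogrammed with retroviruses for Oct3/4, Sox2, Klf4 and c-Myc, and all were grown as established lines in 3i, which joins CHIR99021 (an inhibitor of GSK3), PD184352 (of MEK) and SU5402 (of the FGF receptor). The (−)/(+) iPSCs (clones 1, 2 and 3) received 3i only after their colonies had been picked, and the (+)/(+) iPSCs (clones 4, 5 and 6) received it in the reprogramming period as well. Each clone is 1 line grown from 1 colony, so the p-values measure the spread among lines with 1 array each. The iPSCs were kept on feeder cells, whose RNA can be in the samples.

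In G1 the origin recognition complex sits on the origin, Cdc6 joins it, and Cdt1 brings the ring of Mcm2 to Mcm7, which is closed around the DNA as the inactive core of the replicative helicase. Once S phase starts, geminin (Gmnn) binds Cdt1 and blocks further loading, and PCNA, the sliding clamp of the polymerases, also recruits the ubiquitin ligase that destroys Cdt1 on chromatin. Mouse pluripotent stem cells divide with a very short G1 phase and are known for high levels of the licensing proteins.

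E2F factors switch on many S-phase genes through a short promoter motif, and matches to it were looked for in the licensing genes. The letters searched were TTT, then 2 letters that are each C or G, then CGC, on both strands and with overlapping matches counted. The stretch searched was the 250 bases before and the first 50 bases after the start given with each promoter (GRCm38.p6). That start is not always the outer limit of the gene as printed below. The window of Cdc6, for one, lies before its promoter start but inside the printed limits of the gene. Of the 8 licensing genes with a promoter given, 6 held a match, against 704 of 27025 genes (2.6%), or 744 of 32851 promoters (2.26%). Among other replication and cell-cycle genes 26 of 90 did (28.9%). The windows below, 1 for each of the 6 genes, are shown because they hold this shared feature. The capitals mark 1 match in each window and the rest is the reference sequence on the strand of the gene. In the windows of Mcm5 and Mcm6 another match, on the opposite strand, overlaps it and runs on into the lower-case letters.
Mcm3, chr1:20820263-20820292, minus strand: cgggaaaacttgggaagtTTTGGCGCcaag
Mcm5, chr8:75109345-75109374, plus strand: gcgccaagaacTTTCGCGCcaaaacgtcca
Mcm6, chr1:128359797-128359826, minus strand: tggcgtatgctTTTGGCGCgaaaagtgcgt
Mcm7, chr5:138171849-138171878, minus strand: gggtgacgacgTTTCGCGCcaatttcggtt
Cdc6, chr11:98908002-98908031, plus strand: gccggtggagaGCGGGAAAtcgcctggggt
Cdt1, chr8:122568035-122568064, plus strand: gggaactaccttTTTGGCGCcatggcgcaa
Mcm6 had 3 matches, Mcm3, Mcm5 and Mcm7 had 2 each (those of Mcm7 in 1 of its 2 promoters), and Cdc6 and Cdt1 had 1 each. In Cdc6 the match lies on the opposite strand. The windows of Mcm2 and Pcna did not hold these letters, which says only that these letters are not in that stretch. A match is a description of the sequence, and factor binding was not measured on these arrays.

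The arrays had been scaled by the authors to a trimmed mean signal of 500, and their medians were 74.2 to 75.7 in the (−)/(+) and 64.1 to 70.2 in the (+)/(+) group. The 3′ to 5′ ratio of Gapdh, a sign of RNA integrity, was 0.82 to 0.87, and that of Actb 1.56 to 1.77. Of the 8 markers of pluripotent cells 0 were called between the groups. Their summed signals were 93519 to 96775 in the (−)/(+) and 99358 to 105786 in the (+)/(+) clones, ranges that did not overlap either. Of the 10 tested markers of fibroblasts and feeder cells 6 fell in the (+)/(+) iPSCs, with a median log2 difference of −0.77 and summed signals of 26086 to 34377 against 17065 to 20580, ranges that did not overlap. Of the 12 listed fibroblast markers Col1a1 and Lum were too low to be tested, and Lum, the dimmest, read 0.829 to 53.1. Of the 4 tested markers of 2-cell-like cells 4 rose, with summed signals of 2602 to 5628 against 16227 to 21161, and of the tested markers of neural cells (2), primitive endoderm (3), mesoderm (1) and trophectoderm (3) 0 were called. Within a sample of many cells, fewer cells of a type and less RNA per cell cannot be told apart. The part of feeder cells and of 2-cell-like cells in the licensing results was not tested.

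No licensing gene was called higher or lower in the (+)/(+) iPSCs at a Benjamini-Hochberg adjusted p under 0.05 in limma. Over all 22518 tested probe sets, 1.35% were called higher and 1.77% lower, so that 43.4% of calls were higher, a share that was 79.4% with the arrays scaled to a common median. The log2 differences between the group means, (+)/(+) over (−)/(+), ran from −0.10 for Mcm6 to 0.24 for Pcna and Mcm2, with a median of 0.03 against −0.05 over the 11177 tested genes. Under the common median, which moved the median of all tested probe sets from −0.05 to 0.10, Mcm4, Mcm6, Mcm7, Cdc6 and Cdt1 changed sign, and again no licensing gene was called. Every one of the 10 intervals of 95% lay within a 2-fold change in either direction, the lowest bound being −0.49 (Cdc6) and the highest 0.69 (Mcm2). The same held for 91.1% of all tested genes. An unadjusted p under 0.05 was seen for 1 of the 10 genes, Pcna, against 20.9% of tested genes. The groups were apart in 3 of the 23 tested probe sets, 1 each of Mcm4, Mcm6 and Mcm7, all with the (+)/(+) clones below, as in 16.6% of all tested probe sets. In 0 of 23 were the (+)/(+) clones all above, as in 10.5% of all.

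**Figure D1:**
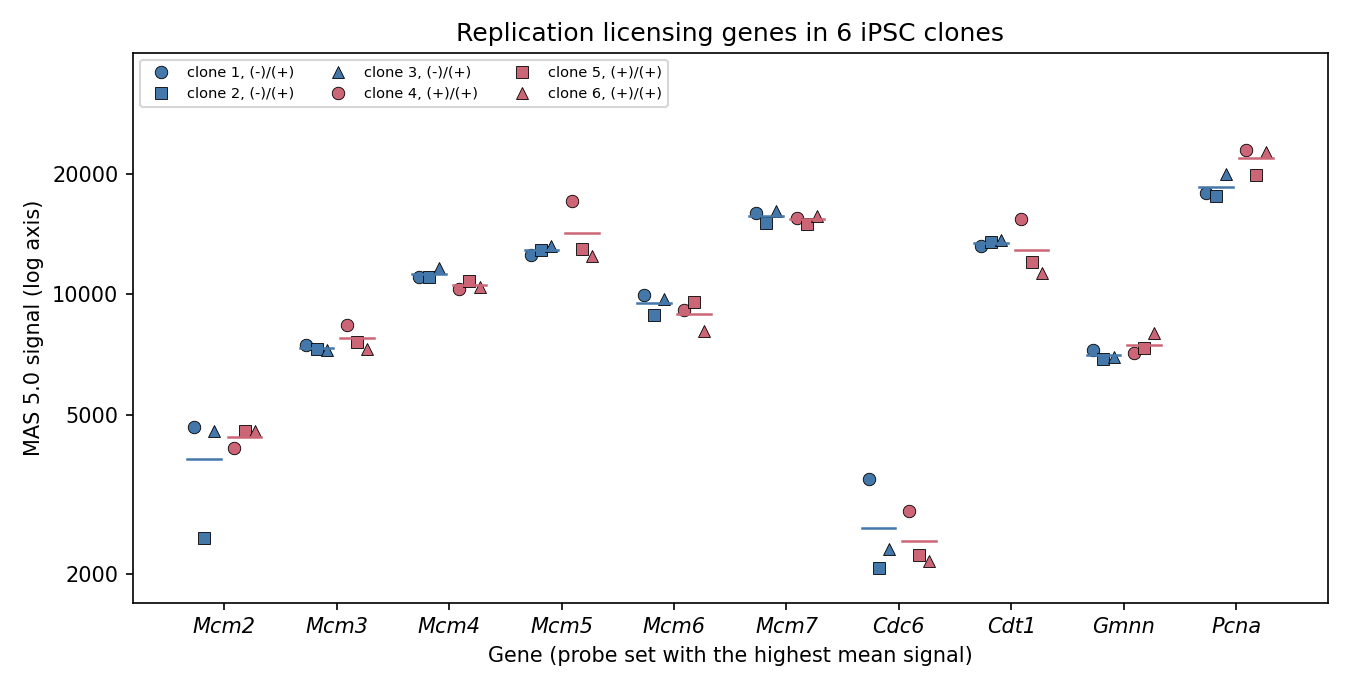
MAS 5.0 signal (log axis) of the 10 licensing genes in the 6 clones, blue for (−)/(+) and red for (+)/(+), with a horizontal line at each group's mean. Most clones of a gene sit close together, and the points that stand away are Mcm2 in clone 2 (2461), Mcm5 in clone 4 (17115) and Cdc6 in clone 1 (3459); heights of different genes come from different probes and are not to be compared.

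**Figure D2:**
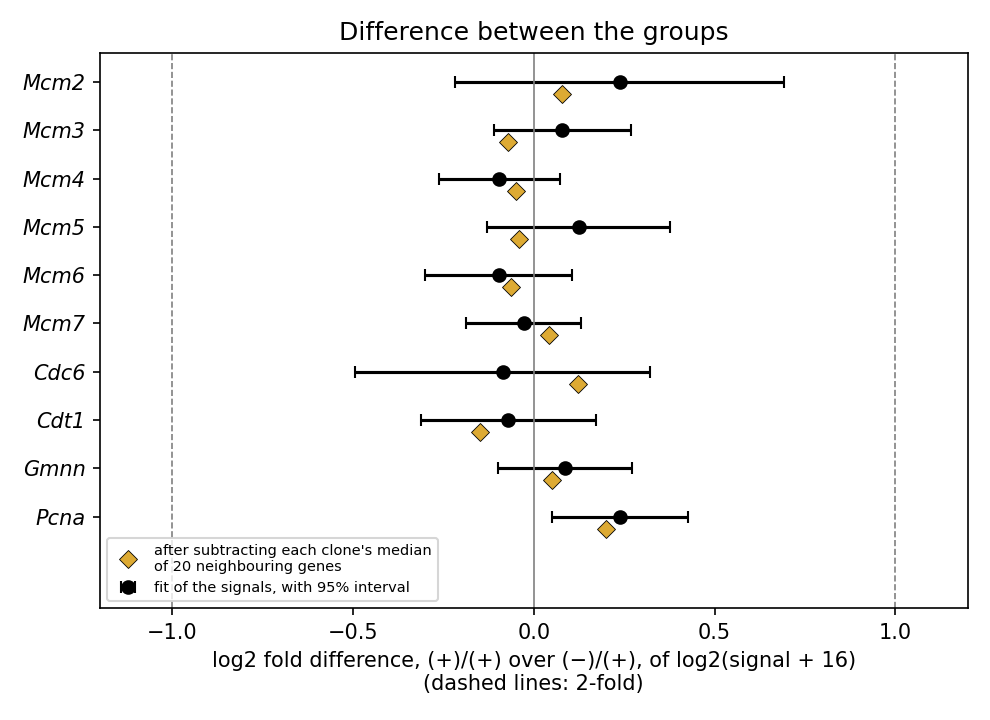
Log2 difference between the groups for each gene (black points) with the 95% interval of the limma fit, and the same difference after each clone's median over 20 neighbouring genes was subtracted (yellow diamonds, no interval drawn). All intervals lie between the dashed lines at 2-fold, and only that of Pcna leaves out 0.

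The helicase ring is made of 1 copy each of Mcm2 to Mcm7. Mcm2 (chr6:88883474-88898780) read 4650, 2461 and 4553 for the (−)/(+) iPSCs (clones 1 to 3, in that order here and below) and 4133, 4556 and 4545 for the (+)/(+) iPSCs (clones 4 to 6). Clone 2 alone was low, at 54.0% of the median of the other 5 clones (4553), and the other 5 lay between 4133 and 4650. The group means were 3888 ± 1237 and 4412 ± 241 (SD, n = 3 each), a log2 difference of 0.24 with an SE of 0.21 (limma adjusted p = 0.538). Without clone 2 the difference was −0.06, so its direction rested on that clone.

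Mcm3 (chr1:20802966-20820312) read 7449, 7295 and 7262 against 8399, 7613 and 7282. Only clone 4 stood a little above the rest, and the log2 difference was 0.08 (limma adjusted p = 0.628). Its 4 other tested probe sets gave log2 differences of −0.09 to 0.10. Mcm4 (chr16:15623897-15637400) read 11051, 11049 and 11644 against 10323, 10814 and 10453. Each (+)/(+) clone was below each (−)/(+) clone, by a log2 difference of −0.09 (interval −0.26 to 0.07, limma adjusted p = 0.497), and in the other probe set of Mcm4 (difference −0.17) the groups overlapped.

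Mcm5 (chr8:75109468-75128439) read 12503, 12922 and 13231 against 17115, 12987 and 12453. Clone 4 was 1.32 times the median of the other 5, which lay within 12453 to 13231, and the log2 difference between the groups was 0.12 (limma adjusted p = 0.563). Without clone 4 it was −0.02. By the naming of the array, the ending _x_at of this probe set marks probes that may also match other transcripts, as does the ending _s_at of the probe sets used for Mcm2, Mcm3 and Mcm7. The second probe set, without that ending, gave 3251, 3443 and 3479 against 4474, 2907 and 3350, again highest in clone 4, and the third and dimmest gave 155 in clone 4 and 78.9 to 121 in the others.

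Mcm6 (chr1:128331575-128359705) read 9967, 8879 and 9753 against 9122, 9542 and 8096, with overlapping groups and a log2 difference of −0.10 (interval −0.30 to 0.11, limma adjusted p = 0.574). Its second probe set put the (+)/(+) clones (7616 to 8017) below the (−)/(+) clones (8091 to 8639) by a log2 difference of −0.10 (adjusted p = 0.485). Mcm7 (chr5:138164583-138172111) read 15934, 15053 and 16101 against 15537, 14966 and 15656, the smallest difference among the 10 genes at −0.03 (interval −0.19 to 0.13). The second brightest probe set of Mcm7 had the groups apart, at 6534, 6140 and 6830 against 5977, 5984 and 5834, a log2 difference of −0.13 (limma adjusted p = 0.402). All 4 probe sets of Mcm7 had differences between −0.13 and −0.03.

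Cdc6, the ATPase that joins the origin recognition complex and helps to load the ring, lies at chr11:98907709-98923942 and has 1 probe set. It read 3459, 2070 and 2319 against 2872, 2234 and 2162. Clone 1 was 1.55 times and clone 4 1.29 times the median of the other 5 clones, so each group held 1 high clone. The log2 difference was −0.09 with an SE of 0.18 (interval −0.49 to 0.32, limma adjusted p = 0.823), and it was 0.13 without clone 1.

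Cdt1, the factor that carries the ring to the origin, lies at chr8:122568015-122573130. It read 13208, 13516 and 13623 against 15380, 12065 and 11328. The (−)/(+) clones lay close together, while clone 4 was above and clones 5 and 6 below all of them. The log2 difference was −0.07 (interval −0.31 to 0.17, limma adjusted p = 0.748), and it was 0.02 without clone 6. Its second probe set gave 4098, 4622 and 4404 against 4592, 3331 and 3149, with clones 5 and 6 again lowest (difference −0.26, limma adjusted p = 0.305).

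Gmnn, whose product geminin holds Cdt1 inactive, lies at chr13:24751845-24761937. It read 7277, 6879 and 6982 against 7149, 7328 and 7982, with overlapping groups and a log2 difference of 0.09 (interval −0.10 to 0.27, limma adjusted p = 0.588). The log2 signal of Cdt1 less that of Gmnn, a quantity read here only for its change between clones, came to 0.86, 0.97 and 0.96 against 1.10, 0.72 and 0.50. The mean was 0.93 ± 0.06 in the (−)/(+) and 0.78 ± 0.30 in the (+)/(+) iPSCs (SD, n = 3), and the exact two-sided permutation test gave p = 0.5, where 3 against 3 clones cannot give less than 0.1. The (+)/(+) clones lay on both sides of the (−)/(+) clones, so the spread within that group exceeded the difference between groups. Clone 4 alone lay above, and Cdt1 lies on chromosome 8, whose genes had a median deviation of 0.41 in that clone. With each clone's chromosome median subtracted, the deviations of Cdt1 were 0.031, 0.028 and 0.047 against −0.21, −0.13 and −0.20. The difference from Gmnn was not tested in that form.

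Pcna, the sliding clamp, lies at chr2:132249286-132253180 and had the smallest p of the 10 genes. It read 17878, 17633 and 19935 against 22955, 19878 and 22625. The groups touched, since clone 5 was just below clone 3. The means were 18482 ± 1264 and 21819 ± 1689 (SD, n = 3 each), a log2 difference of 0.24 with an SE of 0.085 and an interval of 0.05 to 0.43 (limma unadjusted p = 0.018, adjusted p = 0.144), which did not pass the threshold. The difference stayed above 0 in all 20 alternative settings tried, from 0.11 to 0.40, and its adjusted p lay between 0.068 and 0.375. Settings that changed only the filter, the trend or the test left the difference at 0.24 by construction, so its sign could not change there.

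The (−)/(+) clones varied little in most of these genes. The median SD of the log2 values among the 3 (−)/(+) clones was 0.048 for the licensing genes, against 0.109 for the 1958 tested genes at least as bright as the dimmest of them. Among the (+)/(+) clones the medians were 0.110 and 0.105, so the licensing genes were not less variable there. The sets were not otherwise matched for brightness. The lowest SD was that of Mcm3 in the (−)/(+) group (0.020) and the highest that of Mcm2 in the same group (0.519). Of the 60 deviations from the median of the 6 clones, 10 genes in 6 clones, 4 were 0.3 or more on the log2 scale, and these were Mcm2 in clone 2, Mcm5 in clone 4, and Cdc6 in clones 1 and 4. The threshold of 0.3 was chosen after the values were seen.

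**Figure D3:**
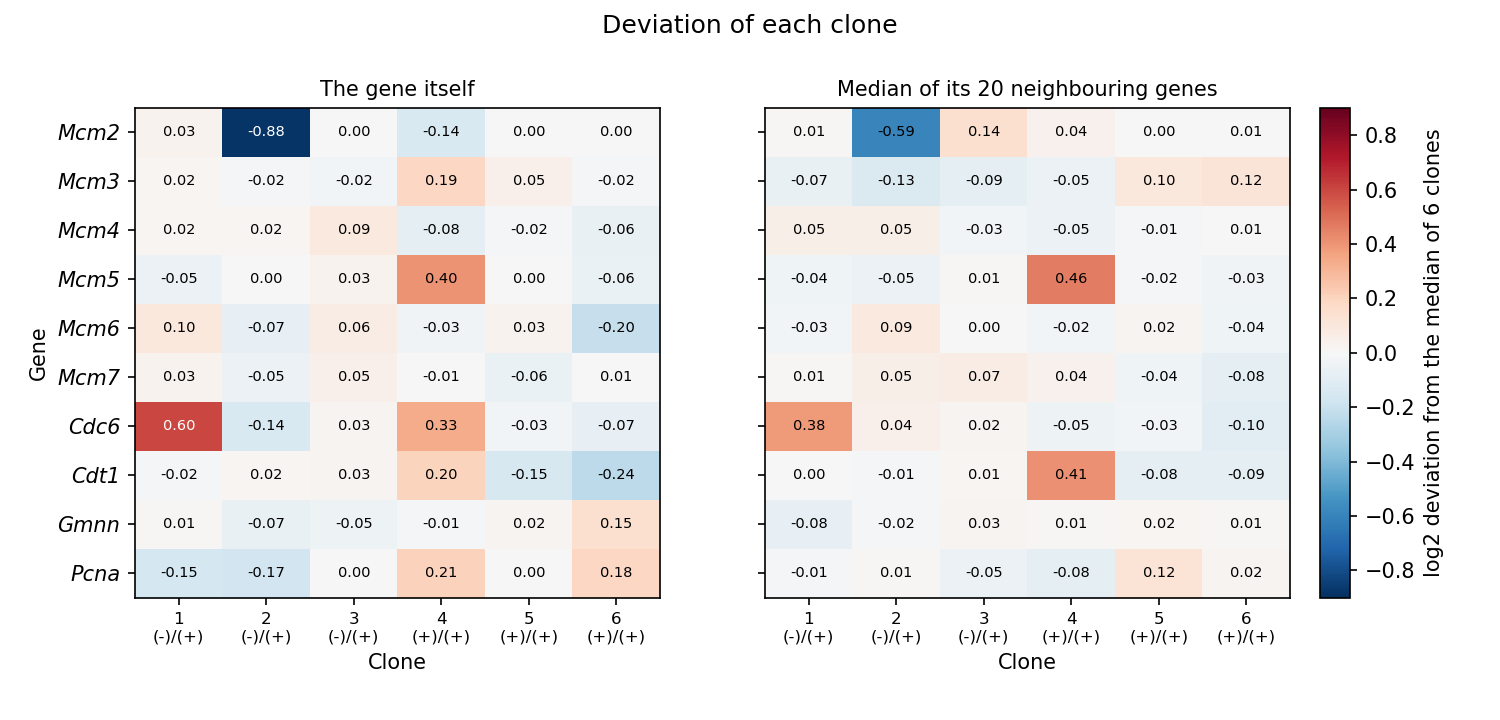
Log2 deviation of each clone from the median of the 6 clones, for each licensing gene (left) and as the median of its 20 neighbours (right), with red above and blue below. The neighbours are the first 10 tested genes on each side with a mean signal above 500. Mcm2 in clone 2 (−0.88 and −0.59), Mcm5 in clone 4 (0.40 and 0.46) and Cdc6 in clone 1 (0.60 and 0.38) stand out in both panels, while Cdc6 in clone 4 (0.33 and −0.05) stands out only on the left.

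Of these 4 deviations, 3 were shared with the genes that lie beside them. Mcm2 in clone 2 deviated by −0.88, and by −0.92 in its other probe set. Its 20 neighbours are the first 10 tested genes on each side with a mean signal above 500, from Nfu1 to Kbtbd8. All of them were below the median in clone 2, with a median of −0.59 and a range of −1.05 to −0.05. In the other 5 clones the neighbours had medians of 0.00 to 0.14. The lowering did not span the chromosome, whose 275 other genes had a median of 0.05 in clone 2. In blocks of 20 genes it took in 4 successive blocks, with gene starts between 52713692 and 92169512 on chromosome 6, with medians of −0.60, −0.74, −0.73 and −0.59, and the next block on each side had 0.04 and 0.14. The block edges are not the limits of the stretch, since lowered genes lay in both flanking blocks, from Stk31 (−0.76) at −39.5 Mb to Suclg2 (−0.84) at 6.59 Mb from the start of Mcm2, genes chosen after their values were seen. Pole4, a small subunit of polymerase epsilon on the same chromosome, deviated by −0.90 in clone 2. With the neighbours' median subtracted, Mcm2 in clone 2 was still 0.29 below on the log2 scale. In clone 3 a lowered stretch of medians −0.43, −0.43 and −0.56 ended before the block that holds Mcm2, and Mcm2 in clone 3 deviated by 0.00.

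**Figure D4:**
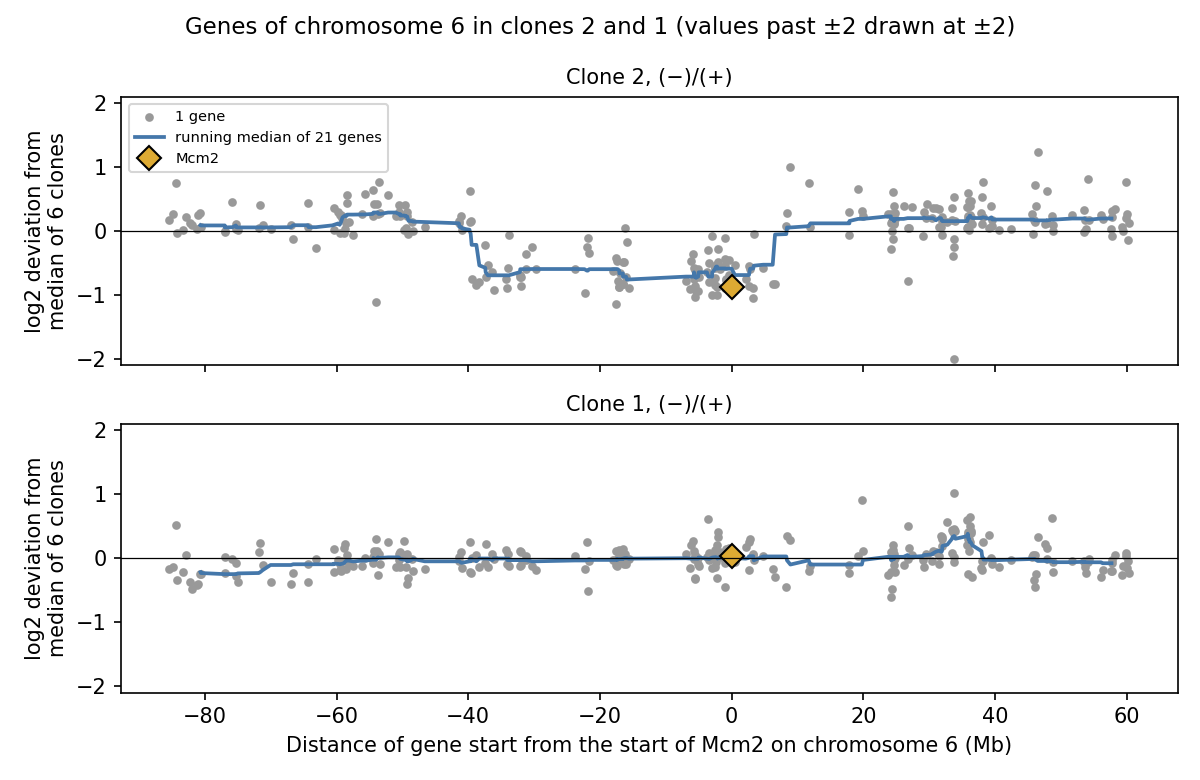
Log2 deviation from the median of 6 clones of each bright gene of chromosome 6 (grey points) against its distance from Mcm2 in Mb, with the running median of 21 genes (line) and Mcm2 itself (yellow), in clone 2 (top) and clone 1 (bottom). In clone 2 Mcm2 lies inside a long lowered stretch, near its right end, and in clone 1 the genes around Mcm2 lie near 0.

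Mcm5 and Cdt1 lie on chromosome 8, whose 329 genes had a median deviation of 0.41 in clone 4, with 275 of them (83.6%) highest in that clone. Mcm5 deviated by 0.40 in clone 4, as did its neighbours (median 0.46, 20 of 20 above). Cdt1 deviated by 0.20, less than its own neighbours (median 0.41, 19 of 20 above). With the chromosome's median taken from each clone, the log2 difference of Mcm5 between the groups was −0.02 and that of Cdt1 −0.22 (limma adjusted p = 0.890 and 0.114). Other replication and cell-cycle genes of this chromosome went the same way, with a median deviation of 0.33. Of 7, Orc6, Gins3, Gins4 and Tfdp1 were highest in clone 4, and Gins2, Cul4a and Rbl2 were not.

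Cdc6 lies on chromosome 11, whose genes had a median deviation of 0.27 in clone 1, with 346 of 502 (68.9%) highest there. Its own deviation of 0.60 was larger, and its 20 neighbours had a median of 0.38, with 17 above. Of 10 other replication and cell-cycle genes of this chromosome, 7 were highest in clone 1, and the median deviation was 0.22. Among the 7 were Top2a and Aurkb, of the list of mitosis and proliferation. The deviation of Cdc6 in clone 4, 0.33, had no such company, since chromosome 11 had a median of −0.06 and the neighbours −0.05 in that clone. The cause of these shared deviations was not tested.

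The other replication genes, 112 in 13 lists, take in cell-cycle genes as well, with lists of the E2F and RB families and of mitosis. Of 107 tested, 1 rose and 1 fell in the (+)/(+) iPSCs (limma, adjusted p under 0.05), next to 1.35% and 1.77% of all tested probe sets. Their median log2 difference was −0.02. The groups were apart with the (+)/(+) clones above in 13 genes (12.1%) and below in 20 (18.7%), next to 10.5% and 16.6% over all tested probe sets, and 19 genes (17.8%) had an unadjusted p under 0.05, next to 20.9% of all tested genes. The gene that rose was Ccne2, cyclin E2, the partner of Cdk2 at the start of S phase. It read 1233, 914 and 1107 against 1925, 1520 and 1680, a log2 difference of 0.65 (interval 0.34 to 0.96, adjusted p = 0.040). The call was lost when any one of clones 2, 3, 4, 5 or 6 was left out (0.54 to 0.73, adjusted p 0.075 to 0.148). The gene that fell was Tyms, thymidylate synthase, at 151, 157 and 150 against 61.1, 77.4 and 96.8 in its brightest probe set (log2 difference −0.85, limma adjusted p = 0.049). These are low signals, next to array medians of 74.2 to 75.7 in the (−)/(+) and 64.1 to 70.2 in the (+)/(+) group. The other probe sets of Tyms read 65.0 to 110, 2.92 to 31.7 and 2.25 to 10.8. The call was lost when any one of the 6 clones was left out (−0.99 to −0.72, adjusted p 0.070 to 0.133), with chromosome medians subtracted (−0.82, adjusted p = 0.055) and without clones 1 and 4 (−0.72, adjusted p = 0.112). The mean of all probe sets of Tyms gave −0.12 (adjusted p = 0.733).

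**Figure D5:**
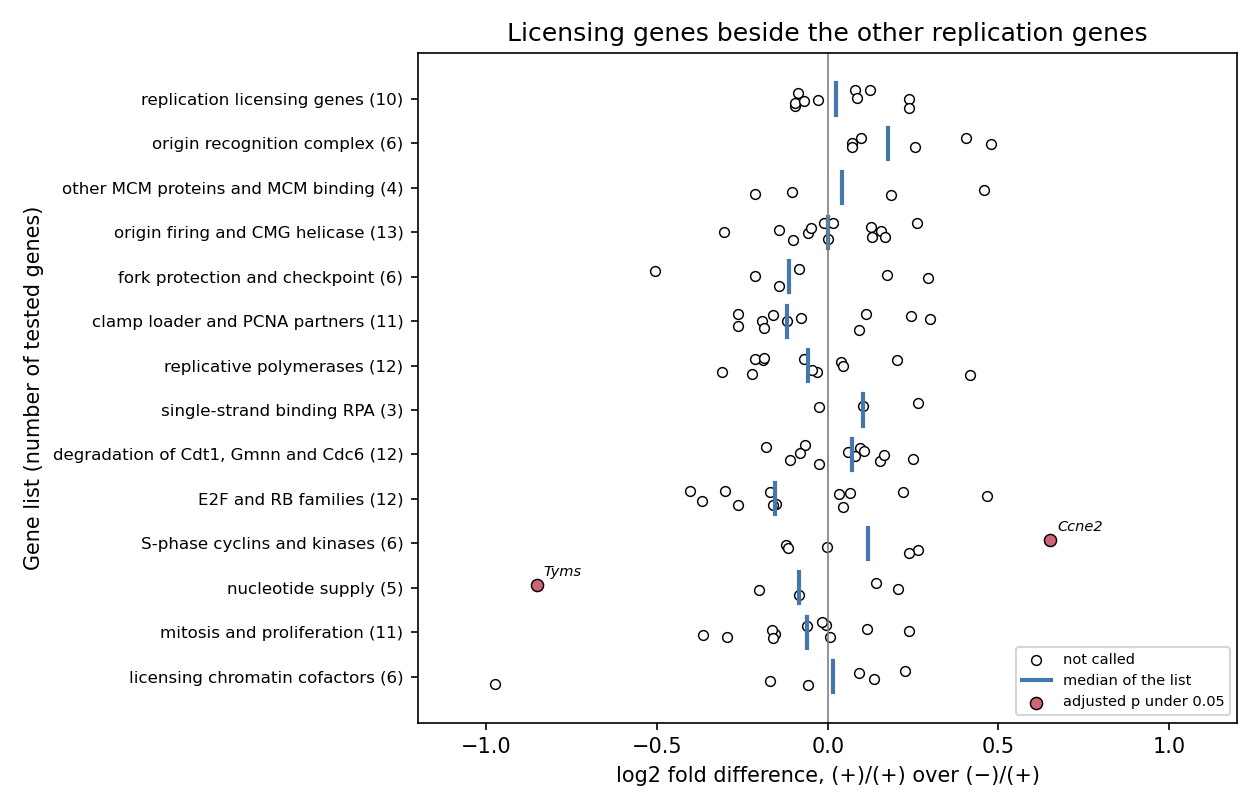
Log2 difference between the groups, (+)/(+) over (−)/(+), of the 10 licensing genes and of the tested genes of 13 other replication and cell-cycle lists. Each circle is 1 gene and each blue bar the median of its list. Filled circles are the genes with an adjusted p under 0.05, Ccne2 and Tyms, and the licensing genes all lie between −0.10 and 0.24.

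The origin recognition complex, the platform on which Cdc6 and Cdt1 act, had 0 of 6 subunits called and a median of 0.18, with 3 at an unadjusted p under 0.05 (20.9% of all tested genes). Orc5 read 2896, 3073 and 3167 against 3709, 3333 and 3880 (0.25, limma adjusted p = 0.177), and Orc6 read 3920, 4007 and 3597 against 6620, 4466 and 5189 (0.48, adjusted p = 0.080), with clone 4, the clone raised along chromosome 8, the highest. Among the origin-firing and CMG helicase genes, which turn the loaded ring into a working helicase, 0 of 13 were called (median 0.00), with Dbf4, the activator of the Cdc7 kinase, at 0.16 and Topbp1 at −0.01. Of the genes that carry out or control the degradation of Cdt1, geminin or Cdc6, 0 of 12 were called (median 0.07). Skp1 and Cdc20 had log2 differences of 0.15 and −0.08. Mcm10 and Mcmbp, which bind the MCM proteins, had −0.21 and −0.11, and 0 of the 4 genes of that list were called.

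Around the clamp, 0 of 11 clamp loader genes and PCNA partners were called (median −0.12). Rfc5, a clamp loader subunit, and Lig1, the ligase of the lagging strand, had log2 differences of −0.26 and −0.19 (limma adjusted p = 0.167 and 0.279), with the (+)/(+) clones below in both. The replicative polymerases (0 of 12, median −0.06, with Prim1 at −0.03 and Pole2 at 0.04) and the RPA subunits (0 of 3, median 0.10, with Rpa1 at −0.03 and Rpa3 at 0.26) gave no calls. Of the fork protection and checkpoint genes 0 of 6 were called (median −0.11), with Tipin at 0.17 and Chek1 at 0.29. Timeless, the partner of Tipin, chosen after its values were seen, read 2173, 2766 and 2285 against 1867, 1563 and 1634 (−0.50, adjusted p = 0.057).

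Of the E2F and RB families 0 of 12 tested genes were called (median −0.16). E2f5 read 1563, 1373 and 1472 against 1810, 2177 and 2130 (0.47, limma adjusted p = 0.058), and Tfdp1, an E2F partner on chromosome 8, read 8102 in clone 4 and 4800 to 5126 in the others. The S-phase cyclins and kinases had a median of 0.12 with 1 of 6 called. In that list 3 genes had a limma unadjusted p under 0.05, as many as in the origin recognition complex (20.9% of all tested genes). The genes of nucleotide supply had a median of −0.08 with 1 of 5 called. The list of mitosis and proliferation (0 of 11, median −0.06, with Top2a at −0.15 and Bub1 at 0.24) and that of chromatin cofactors of licensing (0 of 6, median 0.02, with Kat7 at −0.06 and Jade1 at 0.09) gave no calls.

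The mean log2 profile of Mcm2 to Mcm7 over the 6 clones, centred for each gene, ran 0.04, −0.15 and 0.05 against 0.07, 0.02 and −0.04, with clone 2 lowest. The genes most like it among 11167 compared were Smg5, Celf1 and Dtymk, with root mean square log2 differences of 0.013, 0.025 and 0.026 over the 6 clones, where the median of all genes was 0.212. Dtymk encodes thymidylate kinase, which makes dTDP, and Smg5 and Celf1 act on RNA. Of the subunits themselves Mcm7 was nearest at 0.063 and Mcm2 farthest at 0.266. The profile is the mean of these same subunits and stays close to 0, so a gene that varies little lies near it whatever its pattern. Over 6 clones, 1 of them set apart by Mcm2, such likeness is a description of these arrays only.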

How the data were processed

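Biotin-labelled RNA of each clone was hybridised to an Affymetrix mouse array with 1 colour, and the authors deposited its MAS 5.0 output, linear signal intensities with a trimmed mean of 500. Of 45101 probe sets 64 controls were left out. Symbols came from the array annotation (34945 probe sets with 1 symbol, 932 with several and 9160 with none), and 34741 matched mouse RefSeq of GRCm38.p6 by gene identifier, which gave positions. Values were taken as log2(signal + 16), which understates changes of low signals, and the 22518 probe sets above the median mean were tested in R 4.3.3 with limma 3.58.1 (lmFit, eBayes with trend) on group alone, with Benjamini-Hochberg adjustment over all of them. Groups came from the labels, and clone numbers are not shared between groups. The number of arrays limits the precision. The 10 genes, the other lists and the rule for named genes (all 10 genes, then of each list up to 3 called genes or the 2 brightest, and the 3 genes most like the mean Mcm2 to Mcm7 profile) were chosen with earlier results of these data known. Deviations are from the median of 6 clones, over tested genes with a mean signal above 500 for chromosomes and neighbours (10 genes on each side). The fit was also run on simulated data in which probe sets vary independently. Those data hold no shifts along chromosomes like the ones described above, so the run does not cover them. Alternatives were no filter or a filter at a mean signal of 500, a pseudocount of 1 or 64, quantile or common-median scaling, arrayWeights, eBayes without trend, 1 value per gene averaged over its probe sets, the methods' t-test on log2 values, chromosome medians subtracted, leaving out clones 1 and 4 together, and leaving out each clone. Subtracting the medians of 20 neighbours was added after the data were examined. Protein sequences, and the promoters of Mcm4 and Gmnn, were not used here. Python 3.11.15 with matplotlib 3.10.9 drew the figures.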

Additional observations from a re-analysis of the deposited data

How the results depend on the processing

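In all 20 alternatives 0 licensing genes were called higher, and 0 lower except for Mcm4 in the methods' t-test without adjustment (1 gene). A common median moved the median of all log2 differences from −0.05 to 0.10, a shift larger than most values of the licensing genes, and calls became 916 higher (79.4% of calls, against 43.4%) and 237 lower. Under it Mcm4, Mcm6, Mcm7, Cdc6 and Cdt1 changed sign (0.064, 0.061, 0.13, 0.072 and 0.089), as did Mcmbp (0.053), Topbp1 (0.15), Prim1 (0.13), Rpa1 (0.13), Cdc20 (0.079), Top2a (0.0040) and Kat7 (0.099), each no larger than the shift of the median, and 5 other replication genes rose and 0 fell. Quantile normalization put Mcm5 at −0.012 and gave 255 probe sets lower. The mean of all probe sets put Mcm5 at −0.014, Dbf4 at −0.074, Prim1 at 0.018 and Pole2 at −0.064, and arrayWeights put Prim1 at 0.026. Chromosome medians subtracted put Mcm5 at −0.021, Mcm7 at 0.0093, Cdc6 at 0.045, Rpa1 at 0.11 and Kat7 at 0.073. Medians of 20 neighbours subtracted, chosen after the data were seen, put Mcm3 at −0.071, Mcm5 at −0.041, Mcm7 at 0.043, Cdc6 at 0.12, Prim1 at 0.053, Pole2 at −0.067, Rpa1 at 0.087 and Top2a at 0.058. Without clones 1 and 4 Mcm5 was at −0.040, Cdc6 at 0.0043, Topbp1 at 0.060, Prim1 at 0.0089, Pole2 at −0.16, Tfdp1 at 0 to 4 decimals and Top2a at 0.038.

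With each clone left out in turn the ranges that crossed 0 were −0.062 to 0.39 for Mcm2 (clone 2), −0.019 to 0.21 for Mcm5 (clone 4), −0.24 to 0.13 for Cdc6 (clone 1), −0.20 to 0.019 for Cdt1 (clone 6), −0.068 to 0.037 for Topbp1, −0.10 to 0.18 for Pole2, −0.072 to 0.031 for Rpa1 and −0.021 to 0.35 for Tfdp1. The other replication genes called were then 0 to 1 higher and 0 to 1 lower (Timeless without clone 1, as with chromosome medians subtracted, and Tyms in none), and all probe sets 27 to 441 higher and 25 to 512 lower. Gmnn and Pcna kept their sign in all 20 alternatives, some of which, such as other filters and tests, cannot change a sign.

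The counts of other replication genes higher and lower were 0 and 0 without a filter, without trend, in the methods' t-test after adjustment and with neighbours subtracted. They were 8 and 4 with arrayWeights, 10 and 9 in the methods' t-test without adjustment and 3 and 2 without clones 1 and 4. The lower count was 0 with quantile normalization, a common median, a pseudocount of 1, a mean signal above 500 and the mean of all probe sets. On the whole array the higher and lower counts were 101 and 120 without a filter, 215 and 165 above 500, 87 and 178 without trend, 1015 and 1512 with arrayWeights, 102 and 63 for gene means, 0 and 1 in the adjusted and 1572 and 2427 in the unadjusted t-test, and 510 and 510 without clones 1 and 4. The cause of these changes was not tested. No paired analysis was possible because the groups share no clone numbers. Signals near background, such as the untested probe sets of Mcm6 and Cdt1, carry no comparison.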
